A study of Mus musculus with 31 samples.

Results

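The 9 genes described here encode the Hsp70 of the endoplasmic reticulum (ER) and its helpers: Hspa5, Hsp90b1, Hyou1, Dnajb9, Dnajb11, Dnajc3, Sdf2l1, Manf and Creld2. They were taken by gene symbol, each through one probe set: of those the array annotation assigns to that gene alone, the one brightest on average across the arrays. They make up 9 of the 17097 genes represented on the array. The question was how much of their expression, and of their induction by ER stress, differed in livers lacking IRE1α or XBP1. In short, all 9 rose after tunicamycin in Ire1 ko livers and in WT livers. Dnajb9, Creld2 and Dnajc3 ended furthest below their WT level in treated Ire1 ko livers, whereas Hspa5 and Hsp90b1 had log2 differences between genotypes of -0.25 to -0.02, which did not pass the test.

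Total RNA from the liver of male mice was measured on 31 arrays in 8 groups. Livers labelled Xbp1 ko were set against WT littermates, all C57BL/6, fed and 14 weeks old, with 4 arrays each. A second experiment held Xbp1 ko mice only, C57BL/6 and 9 weeks old, sampled 8 days after injection of IRE1 siRNA or of luciferase siRNA, a control target, with 4 arrays each. The last experiment held Ire1 ko mice given tunicamycin, WT mice given tunicamycin, untreated Ire1 ko mice and untreated WT mice, with 4, 4, 3 and 4 arrays, all 14 weeks old. Tunicamycin, which blocks N-linked glycosylation and so loads the ER with unfolded protein, was given at 2 mg/kg and livers were taken after 6 h. The Ire1 ko mice are labelled as of mixed strain and the WT mice as C57BL/6, although a label also calls the untreated WT mice littermates of Ire1 ko. With strains as labelled, background strain and genotype cannot be told apart in this experiment. The untreated mice are labelled as fed, no feeding state is given for the tunicamycin mice, and no vehicle injection is named, so drug, injection and feeding cannot be told apart. In which cells, and by which promoter or Cre, the genes were deleted is not given in the sources used here.

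The ER Hsp70, BiP, is encoded by Hspa5. It binds and releases unfolded secretory proteins in a cycle driven by ATP: J-domain proteins (Dnajb9, Dnajb11, Dnajc3) deliver clients and start ATP hydrolysis, Hyou1 exchanges the nucleotide, and Manf slows that exchange. Sdf2l1 works in a complex with Dnajb11, Hsp90b1 is the Hsp90 of the ER, and Creld2 is a stress-induced ER protein that acts on disulfide bonds. Misfolded protein is sensed by IRE1α, PERK and ATF6. IRE1α, encoded by Ern1, splices the mRNA of the transcription factor XBP1 and can also cleave other mRNAs, while ATF6 is itself a transcription factor released by proteolysis. BiP binds these sensors, and Dnajb9 protein is known to help BiP hold IRE1α inactive.

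The targeted genes gave a check of the labels. Ern1 had intensities of 169, 184, 236 and 230 in the Xbp1 ko livers labelled IRE1 siRNA, against 21, 18, 23 and 35 in those labelled luciferase siRNA, a log2 difference of 3.11 (SE 0.22; limma adjusted p = 0.000754). The gene targeted by the siRNA was therefore higher in every liver labelled as treated with it, and the libraries are called by their labels throughout. If the labels were exchanged, every siRNA difference below would turn round. Xbp1 fell to 505, 404, 567 and 404 in Xbp1 ko, against 912, 807, 1140 and 916 in WT littermates, a log2 change of -1.01 (SE 0.14; adjusted p = 0.00872). Ern1 in untreated livers was 150, 153 and 148 in Ire1 ko, against 136, 121, 203 and 137 in WT. After tunicamycin Ern1 was 393, 467, 270 and 360 in Ire1 ko, against 212, 304, 272 and 219 in WT, and was called higher in Ire1 ko (log2 0.55; adjusted p = 0.0371). In the uninjected Xbp1 ko livers, from another experiment, it was 175, 198, 181 and 201. Where these probe sets lie relative to the deleted parts is not known here, so they do not measure the loss of either protein.

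Among the untreated Ire1 ko livers, replicate 2 stood apart from replicates 1 and 3. Its intensity of Ddit3, a stress gene downstream of PERK, was 117, against 14 and 16 in the others. Creld2 and Dnajb9 were also highest in that liver, and their main results are given with and without it. Arrays are labelled as biological replicates. The median intensity was 5 on every array, and 66.2% of all values were 6 or less, so changes of dim genes are compressed. Precision is set by the few arrays in each group.

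Promoter sequences were examined for 3 stress elements, all read on both strands, because XBP1 and ATF6, the transcription factors of the IRE1α and ATF6 pathways, bind them with different preference. The ER stress response element (ERSE: CCAAT, any 9 bases, CCACG) is bound by ATF6, and also XBP1, together with the CCAAT-binding factor NF-Y. ERSE-II (ATTGG, any 1 base, CCACG) and the core of the UPR element (UPRE, TGACGTG) are bound by XBP1 and by ATF6. In RefSeq promoters of the mouse build GRCm38.p6, running 250 bases before to 50 after the start site, 7 of the 9 genes had an entry. Hyou1 and Manf had none.

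An ERSE lay in 4 of these 7 promoters, those of Hspa5, Hsp90b1, Dnajc3 and Creld2, against 39 of all 32851 promoters (0.119%). ERSE-II was found in 1 of 7, that of Dnajb11, against 12 of all promoters (0.0365%). The UPRE core was found in 1 of 7, that of Hspa5, against 661 (2.01%). The shorter letters CCAAT and CCACG, which are contained in the longer motifs, were present in all 7, against 37.4% and 32.8% of all promoters. The Dnajb9 and Sdf2l1 windows contained none of the 3 long motifs. A match is a description of letters, not a shown binding site.

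The matched stretches are shown 5′ to 3′ on the strand of the gene, with the fixed letters of the motif in capitals. Positions count from the start site, and the Hsp90b1 promoter holds 2 matches, one on each strand.
Hspa5 ERSE (chr2:34772020-34772048, plus strand, first motif base at -65): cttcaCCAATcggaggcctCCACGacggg
Hspa5 UPRE core (chr2:34771922-34771950, plus strand, first motif base at -157): gggcgtagcaaTGACGTGagttgcggagg
Hsp90b1 ERSE (chr10:86705633-86705661, minus strand, first motif base at -212): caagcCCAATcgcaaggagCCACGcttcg
Hsp90b1 ERSE on the opposite strand (chr10:86705528-86705556, minus strand, first motif base at -107): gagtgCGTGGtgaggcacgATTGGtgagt
Dnajc3 ERSE (chr14:118937822-118937850, plus strand, first motif base at -105): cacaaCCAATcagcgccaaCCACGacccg
Creld2 ERSE on the opposite strand (chr15:88819515-88819543, plus strand, first motif base at -126): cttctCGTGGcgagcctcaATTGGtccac
Dnajb11 ERSE-II (chr16:22857843-22857871, plus strand, first motif base at 7): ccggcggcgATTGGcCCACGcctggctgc

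For Hspa5 and Dnajb9, which differed in how far their treated level in Ire1 ko lay below that in WT, the 250 bases before the start site are shown whole, with each CCAAT and CCACG on either strand in capitals. In the Hspa5 stretch a CCAAT and a CCACG stand at the spacing of an ERSE, and in the Dnajb9 stretch none do. The 7 genes did not divide by this motif. With an ERSE, treated Ire1 ko minus WT was -0.25 (Hspa5), -0.05 (Hsp90b1), -1.02 (Dnajc3) and -1.19 (Creld2) on the log2 scale. Without one it was -2.54 (Dnajb9), -0.69 (Dnajb11) and -0.67 (Sdf2l1). A link between motif and level was not tested.
Hspa5 (chr2:34771840-34772089, plus strand): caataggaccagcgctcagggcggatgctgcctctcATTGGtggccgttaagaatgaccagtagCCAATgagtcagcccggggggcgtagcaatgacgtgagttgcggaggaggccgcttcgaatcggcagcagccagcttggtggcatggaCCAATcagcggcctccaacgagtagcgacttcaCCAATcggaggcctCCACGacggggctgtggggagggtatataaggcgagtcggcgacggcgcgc
Dnajb9 (chr12:44210069-44210318, minus strand): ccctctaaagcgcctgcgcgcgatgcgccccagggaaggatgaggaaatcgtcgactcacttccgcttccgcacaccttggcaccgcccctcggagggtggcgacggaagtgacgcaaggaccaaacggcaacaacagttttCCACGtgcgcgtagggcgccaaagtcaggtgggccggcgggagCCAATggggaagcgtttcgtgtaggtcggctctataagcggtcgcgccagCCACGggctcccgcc

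**Figure D1:**
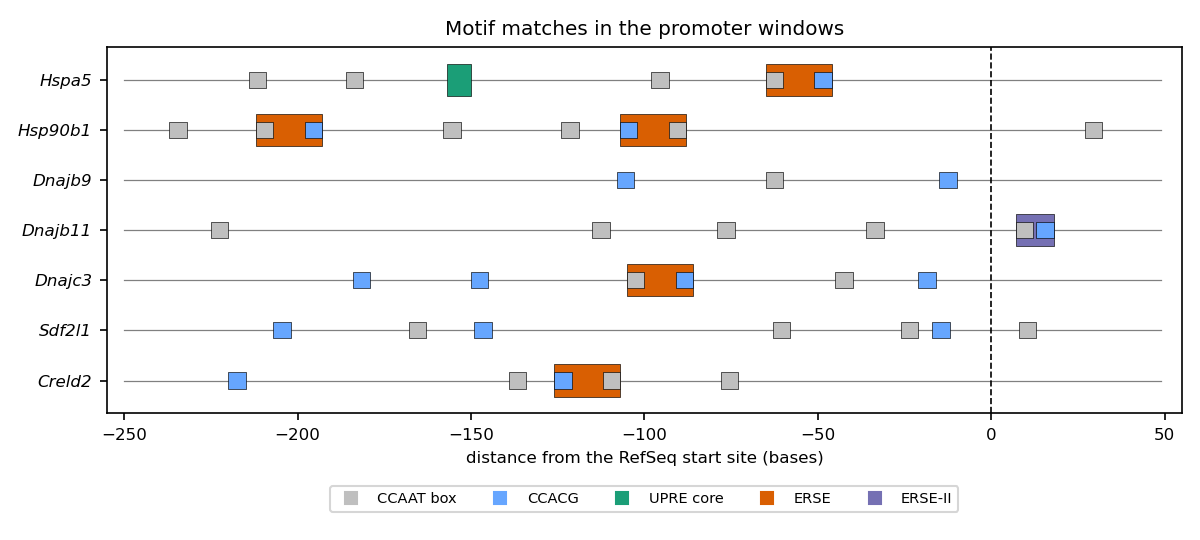
Positions of the motifs in the 7 promoter windows, with distance from the RefSeq start site in bases on the horizontal axis and 1 row per gene. The large boxes mark an ERSE in Hspa5, Hsp90b1 (2), Dnajc3 and Creld2, an ERSE-II in Dnajb11 and a UPRE core in Hspa5; the small boxes mark CCAAT and CCACG.

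Tunicamycin raised all 9 genes in both genotypes. In Ire1 ko livers 9 of 9 were higher with an adjusted p under 0.05, against 17.4% of the 15172 genes tested, by 3.82-fold to 23.0-fold. In WT livers 9 of 9 were higher, against 18.5% of the genes tested, by 3.66-fold to 17.0-fold. Treated and untreated arrays did not overlap for any of the 9 in either genotype, where 18.2% of all genes in Ire1 ko and 16.2% in WT were higher without overlap. These calls held when any 1 of the 15 arrays was left out. The median log2 change of the 9 was 2.54 in Ire1 ko and 2.59 in WT, beside medians near 0 over all genes tested. In whole liver, more cells of a type and more RNA per cell cannot be told apart, nor fewer cells and less RNA. The comparisons of this experiment share its 4 groups of arrays and are not independent of each other.

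Hspa5 itself, the Hsp70, had intensities of 3347, 3262, 3333 and 2879 in treated Ire1 ko livers, against 763, 823 and 869 in untreated Ire1 ko livers. In WT it had 4057, 3646, 3764 and 3776 after tunicamycin, against 872, 880, 1195 and 901 untreated. The rise was 3.92-fold in Ire1 ko (log2 1.97, SE 0.10; adjusted p = 7.12e-10) and 3.99-fold in WT (log2 2.00, SE 0.09; adjusted p = 8.06e-11). Its treated arrays were lower in every Ire1 ko liver than in any WT liver, but the log2 difference after treatment was -0.25 (SE 0.09) at an adjusted p = 0.0684. Hspa5 was called lower there in 3 of 11 other settings, with quantile normalization (adjusted p = 0.0351), a filter at an intensity of 16 (adjusted p = 0.0362) and a robust variance model (adjusted p = 0.047), and also without untreated WT replicate 3 (adjusted p = 0.00957). Its second probe set had a difference of 0.027.

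Hsp90b1, the ER Hsp90, rose by a like factor, but without a gap between the genotypes. It reached 3747, 3457, 3734 and 3469 in treated Ire1 ko livers, against 1011, 880 and 937 untreated, a rise of 3.82-fold (log2 1.94, SE 0.13; adjusted p = 1.63e-08). In WT livers it reached 4112, 3946, 3789 and 3093, against 1008, 1161, 1183 and 765 untreated, a rise of 3.66-fold (log2 1.87, SE 0.12; adjusted p = 2.65e-09). The 2 genotypes overlapped before and after treatment, with a log2 difference after treatment of -0.05 (SE 0.12; adjusted p = 0.868).

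Hyou1, the nucleotide exchange factor, started lower in Ire1 ko. It had 732, 751, 576 and 804 in treated Ire1 ko livers, against 105, 101 and 83 untreated, a rise of 7.41-fold (log2 2.89, SE 0.19; adjusted p = 1.26e-08). WT livers had 971, 1032, 1061 and 781 after tunicamycin, against 225, 312, 318 and 175 untreated, a rise of 3.82-fold (log2 1.93, SE 0.17; adjusted p = 1.52e-07). After treatment the genotypes overlapped, and the log2 difference was -0.43 (SE 0.17; adjusted p = 0.109). That value depends on the probe set: Hyou1 was called lower in treated Ire1 ko with its other 2 probe sets, at -0.85 (adjusted p = 0.0448) and -1.10 (adjusted p = 0.000492), and with the mean of all 3, at -0.79 (adjusted p = 0.0063).

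Manf, which slows nucleotide release from BiP, also started lower and ended close to WT. Its treated Ire1 ko livers had 3200, 2733, 3271 and 3194, against 230, 227 and 271 untreated, a rise of 12.8-fold (log2 3.68, SE 0.16; adjusted p = 1.26e-10). WT livers had 3685, 3844, 3830 and 3517 after tunicamycin, against 489, 406, 792 and 533 untreated, a rise of 6.91-fold (log2 2.79, SE 0.14; adjusted p = 2.98e-10). All treated Ire1 ko arrays lay below all treated WT arrays, yet the log2 difference of -0.27 (SE 0.14) had an adjusted p = 0.268.

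Among the J-domain proteins, Dnajb9 stood at the low end. It had 250, 273, 243 and 316 in treated Ire1 ko livers, against 52, 111 and 51 untreated, a rise of 4.04-fold (log2 2.02, SE 0.24; adjusted p = 9.02e-06; 2.39 without the untreated liver at 111). In WT livers it had 1532, 1611, 1641 and 1472 after tunicamycin, against 196, 131, 192 and 266 untreated, a rise of 8.21-fold (log2 3.04, SE 0.22; adjusted p = 1.59e-08). Treated Ire1 ko livers held 0.172 of the treated WT level (log2 -2.54, SE 0.22; adjusted p = 3.96e-07). Their mean was only 1.38 times that of untreated WT livers, and the arrays of those 2 groups overlapped.

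Dnajc3, a J-domain protein that binds unfolded clients directly, had 1867, 1831, 1751 and 1950 in treated Ire1 ko livers, against 446, 468 and 377 untreated. WT livers had 3646, 3830, 3789 and 3697 after tunicamycin, against 529, 661, 724 and 581 untreated. The rise was 4.31-fold in Ire1 ko (log2 2.11, SE 0.10; adjusted p = 3.15e-10) and 6.04-fold in WT (log2 2.59, SE 0.09; adjusted p = 6.61e-12). No array overlapped between the genotypes after treatment, where the ratio of Ire1 ko to WT was 0.494 (log2 -1.02, SE 0.09; adjusted p = 3.99e-07).

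Dnajb11 had 1215, 1135, 1282 and 1231 in treated Ire1 ko livers, against 237, 206 and 187 untreated, a rise of 5.81-fold (log2 2.54, SE 0.11; adjusted p = 1.26e-10). WT livers had 1959, 1963, 1867 and 2063 after tunicamycin, against 395, 396, 414 and 296 untreated, a rise of 5.27-fold (log2 2.40, SE 0.10; adjusted p = 3.45e-11). The gene was lower in Ire1 ko by a like amount at both times: the log2 difference was -0.69 (SE 0.10; adjusted p = 9.65e-05) after treatment and -0.83 (SE 0.11) before it. No arrays overlapped between the genotypes in either condition.

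Sdf2l1, the partner of Dnajb11, had 1381, 1321, 1607 and 1401 in treated Ire1 ko livers, against 63, 62 and 61 untreated, a rise of 23.0-fold (log2 4.52, SE 0.22; adjusted p = 6.93e-10). In WT livers it had 2531, 2271, 2318 and 1961 after tunicamycin, against 151, 196, 254 and 94 untreated, a rise of 13.9-fold (log2 3.79, SE 0.21; adjusted p = 5.49e-10). All treated Ire1 ko arrays lay below all treated WT arrays, with a log2 difference of -0.67 (SE 0.21; adjusted p = 0.0327).

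Creld2 had 2233, 1923, 2393 and 2685 in treated Ire1 ko livers, against 69, 275 and 73 untreated, a rise of 20.6-fold (log2 4.36, SE 0.37; adjusted p = 2.28e-07). WT livers had 5450, 5567, 5004 and 4871 after tunicamycin, against 238, 313, 515 and 230 untreated, a rise of 17.0-fold (log2 4.09, SE 0.34; adjusted p = 6.86e-08). The treated genotypes did not overlap, and Ire1 ko was lower by 1.19 on the log2 scale (SE 0.34; adjusted p = 0.0216). The value of 275 came from the untreated Ire1 ko liver with high Ddit3; without it the rise in Ire1 ko was 5.01 (log2, SE 0.24; adjusted p = 3.84e-09).

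**Figure D2:**
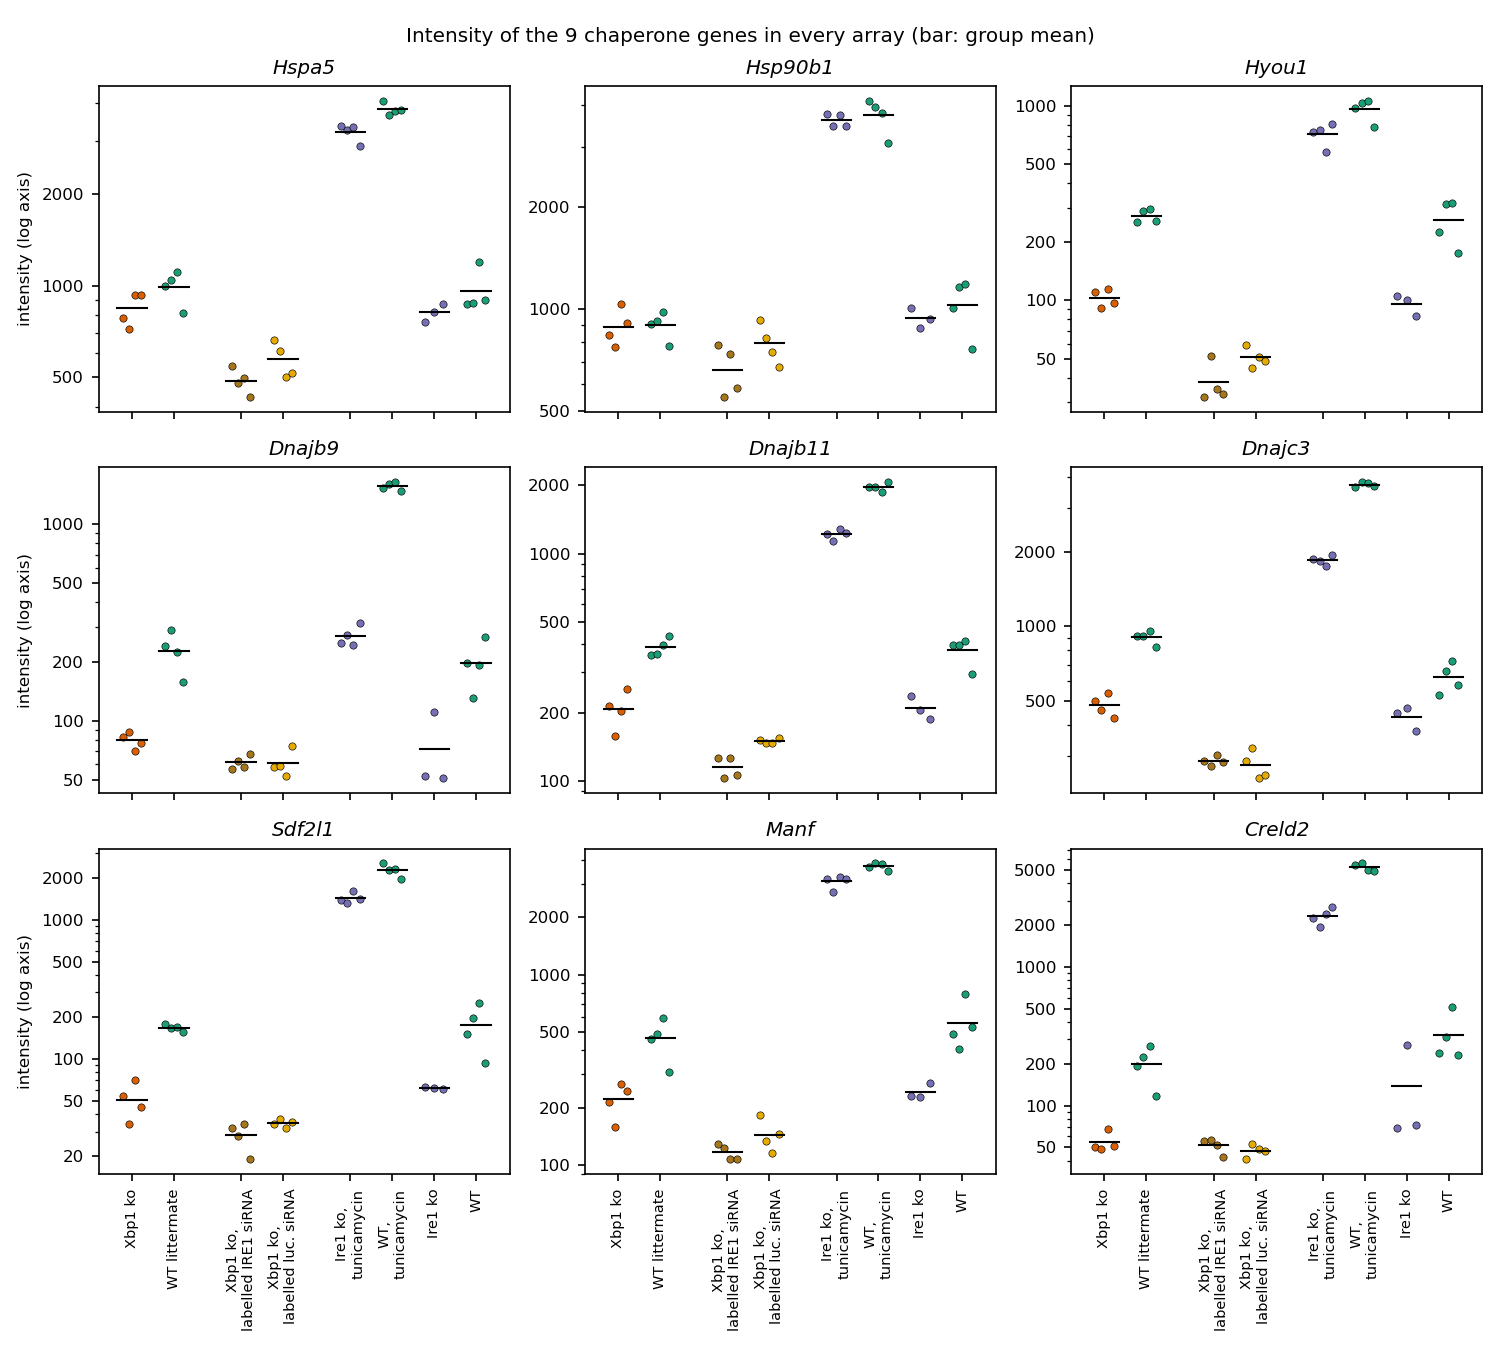
Intensity (log axis, 1 panel per gene) of every array in the 8 groups, with each group's mean as a bar; the 4 groups on the right belong to the tunicamycin experiment. Treated arrays lie above all untreated ones for all 9 genes within each genotype, and treated Dnajb9 in Ire1 ko lies at 243 to 316, against 1472 to 1641 in treated WT.

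The treated genotypes can thus be summed up by 5 of 9 genes that were lower in Ire1 ko after tunicamycin (Dnajb9, Creld2, Dnajc3, Dnajb11 and Sdf2l1), against 8.5% of all genes tested, and 0 that were higher (9.68% of all genes), also at an unadjusted p under 0.05 by limma (15.8% of all genes). Arrays did not overlap for 7 of 9, those 5 with Hspa5 and Manf, where 8.79% of all genes were lower without overlap. Creld2 and Sdf2l1 were the calls near the threshold, both lost with no filter or a robust variance model: they were lost without replicate 1 or 2 of treated Ire1 ko or of treated WT, which left 3 of 9 genes, and Sdf2l1 also without replicate 4 of treated Ire1 ko or replicate 3 of treated WT. The highest adjusted p among those fits was 0.0647 for Creld2 and 0.0977 for Sdf2l1.

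Whether the induction itself differed was tested as the log2 change in Ire1 ko minus that in WT. This difference was positive for Hyou1 at 0.96 (SE 0.25; adjusted p = 0.0292) and for Manf at 0.89 (SE 0.21; adjusted p = 0.0166). It was negative for Dnajc3 at -0.49 (SE 0.13; adjusted p = 0.0331). So 2 of 9 genes had a larger and 1 of 9 a smaller log2 induction in Ire1 ko, against 3.58% and 3.95% of the genes tested.

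For the other 6 genes the test was not passed, and the intervals differ in what they leave possible. Hspa5 had a difference of -0.03 with a 95% interval of -0.31 to 0.25, Hsp90b1 0.06 with -0.31 to 0.43, and Dnajb11 0.14 with -0.17 to 0.45. Creld2 had 0.27 with the wide interval of -0.79 to 1.34. Sdf2l1 had 0.73 (0.08 to 1.37; adjusted p = 0.193) and Dnajb9 -1.02 (-1.72 to -0.32; adjusted p = 0.0764), each with an unadjusted interval on 1 side of 0. Without the untreated Ire1 ko liver that stood apart, the difference was -0.65 (adjusted p = 0.168) for Dnajb9 and 0.92 (adjusted p = 0.0995) for Creld2.

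The Manf call held in all 15 fits that left out 1 array. The Hyou1 call held in 6 of these fits: it was lost without treated Ire1 ko replicate 1, 2 or 4, treated WT replicate 1 or 4, untreated Ire1 ko replicate 2 or 3, or untreated WT replicate 2 or 3, at adjusted p up to 0.0874. The Dnajc3 call held in 4 of the 15, those without treated Ire1 ko replicate 4, untreated Ire1 ko replicate 3 or untreated WT replicate 2 or 3, and otherwise had adjusted p up to 0.0924. Sdf2l1 was called at 0.99 without untreated WT replicate 4 (adjusted p = 0.00682), and Dnajb9 was called with quantile normalization at -1.12 (adjusted p = 0.0297) and under 4 other settings. The 4 further probe sets of Dnajc3 all gave a negative difference, between -1.48 and -0.50. Of these, -0.61, -0.60 and -0.50 did not pass the test (adjusted p = 0.241, 0.174 and 0.229). The Dnajc3 call was also lost with the mean of its probe sets (adjusted p = 0.0568) and with no intensity trend (adjusted p = 0.0566). The other 2 probe sets of Hyou1 gave 0.55 (adjusted p = 0.545) and -0.82 (adjusted p = 0.0952). The Hyou1 call was also lost with the mean of its probe sets, at 0.23 (adjusted p = 0.747), and with no filter (adjusted p = 0.0604). The values of -1.48 and -0.82 came from the dimmest probe set of each gene. These 2 had untreated means of 4.33 to 5.25 in both genotypes, near the median intensity of 5.

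**Figure D3:**
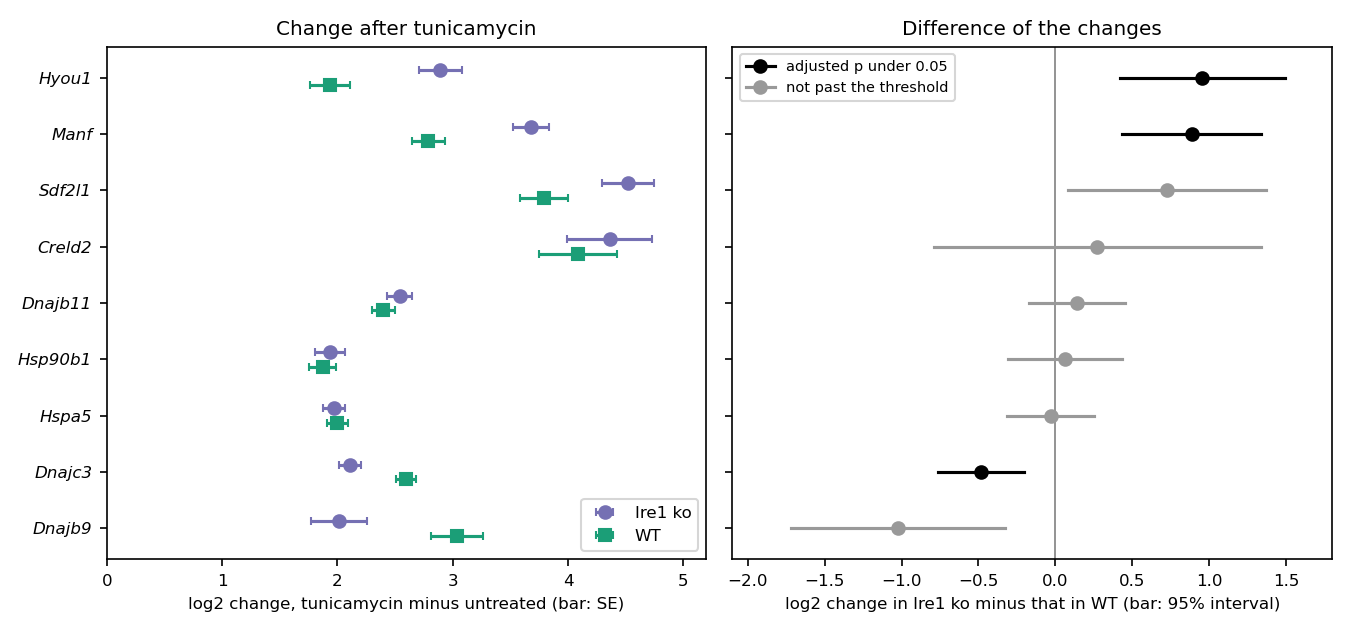
Left, log2 change after tunicamycin with its SE for each of the 9 genes in Ire1 ko (circles) and WT (squares); right, the difference of the 2 changes with its 95% interval, black where the adjusted p was under 0.05. Hyou1 and Manf lie right of 0 and Dnajc3 left of it, while Hspa5 and Hsp90b1 lie within 0.07 of 0.

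As a share of the WT log2 induction, Ire1 ko livers showed 66.4% for Dnajb9 and 81.3% for Dnajc3, the lowest of the 9, and 78.5% and 83.7% without untreated Ire1 ko replicate 2. The share was 98.6% for Hspa5, 103% for Hsp90b1, 106% for Dnajb11, 107% for Creld2 (123% without that liver), 119% for Sdf2l1, 132% for Manf and 149.5% for Hyou1. For scale, 1145 genes rose at least 2-fold in WT livers after tunicamycin. Their median share in Ire1 ko was 68.6%, with quartiles of 35.7% and 98.2%, and 36.7% of them had a smaller log2 induction in Ire1 ko that passed the test. These genes were selected by a high WT change, which is also the base of the share and part of the tested difference. That selection favours lower shares, so they are not a neutral scale for the 9 genes.

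A second way to read the treated Ire1 ko level is against untreated WT liver. Treated Ire1 ko livers exceeded untreated WT livers 8.22-fold for Sdf2l1, 7.13-fold for Creld2 and 5.58-fold for Manf. The ratio was 3.5 for Hsp90b1, 3.33 for Hspa5, 3.24 for Dnajb11, 2.97 for Dnajc3 and 2.78 for Hyou1. Dnajb9, at 1.38, was the one gene of the 9 whose treated Ire1 ko arrays overlapped those of untreated WT. These ratios are given as descriptions, with no test.

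Without any drug, 6 of 9 genes were lower in Ire1 ko than in WT liver, against 0.863% of the genes tested, and 0 were higher (0.0791% of all genes), also at an unadjusted p under 0.05 by limma (3.14% of all genes). Arrays did not overlap for 7 of 9, where 3.64% of all genes were lower without overlap. The genes lower in Ire1 ko were Dnajb9 at a log2 change of -1.52 (SE 0.24; adjusted p = 0.00357; -1.89 without replicate 2 of Ire1 ko), Sdf2l1 at -1.40 (SE 0.22; adjusted p = 0.0036) and Hyou1 at -1.38 (SE 0.19; adjusted p = 0.000711). Manf followed at -1.15 (SE 0.16; adjusted p = 0.000711), Dnajb11 at -0.83 (SE 0.11; adjusted p = 0.000544) and Dnajc3 at -0.53 (SE 0.10; adjusted p = 0.0103).

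Creld2 was lower by 1.46 on the log2 scale in untreated Ire1 ko but did not pass the test (SE 0.37; adjusted p = 0.0855). Without the liver that stood apart the change was -2.11 (SE 0.24; adjusted p = 0.000287), which made 7 of 9. Dnajc3 was not called without untreated Ire1 ko replicate 3 (-0.44; adjusted p = 0.0776), nor with the mean of its probe sets (-0.63; adjusted p = 0.105) or 3 of its 4 other probe sets, at -0.85, -0.72 and -0.09 (adjusted p = 0.0669, 0.0742 and 0.948). Hyou1 was not called with 1 of its other probe sets (-0.28; adjusted p = 0.748). That probe set and the Dnajc3 one at -0.09 had untreated means of 4.33 to 5.25 in both genotypes, near the median intensity of 5. The genes of BiP and the ER Hsp90, both abundant ER chaperones, had the smallest changes of the 9: Hspa5 had -0.22 (SE 0.10; adjusted p = 0.482) and Hsp90b1 -0.11 (SE 0.13; adjusted p = 0.875). Hspa5 arrays nevertheless did not overlap, at 763 to 869 in Ire1 ko and 872 to 1195 in WT. Its unadjusted 95% interval was -0.43 to -0.015, while the Hsp90b1 arrays overlapped.

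Loss of XBP1 was compared in separate mice. In Xbp1 ko liver 6 of 9 genes were lower than in WT littermates, against 2.07% of the 14008 genes tested, and 0 were higher (0.642% of all genes), also at an unadjusted p under 0.05 by limma (7.5% of all genes). Arrays did not overlap for 7 of 9, where 3.73% of all genes were lower without overlap. The median log2 change of the 9 was -1.05, beside 0.01 over all genes tested.

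Creld2 fell to 50, 49, 68 and 51 in Xbp1 ko, against 192, 223, 270 and 118 in WT littermates (log2 -1.83, SE 0.25; adjusted p = 0.00714). Sdf2l1 fell to 54, 34, 70 and 45, against 179, 167, 169 and 156 in WT (log2 -1.77, SE 0.20; adjusted p = 0.00319). For these 2 genes the highest Xbp1 ko array lay below the lowest WT array, at 0.281 and 0.293 of the WT level.

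The J-domain proteins fell as well. Dnajb9 had 83, 88, 70 and 77 in Xbp1 ko, against 241, 288, 223 and 157 in WT littermates (log2 -1.49, SE 0.18; adjusted p = 0.00366). Dnajb11 had 214, 158, 203 and 253, against 358, 362, 398 and 434 in WT (log2 -0.92, SE 0.14; adjusted p = 0.0129), and Dnajc3 had 501, 461, 536 and 426, against 911, 918, 958 and 827 in WT (log2 -0.91, SE 0.08; adjusted p = 0.000932). None of the 3 overlapped between the genotypes. The Dnajb11 call was lost without WT littermate replicate 3 (adjusted p = 0.0536).

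Hyou1 fell to 110, 91, 114 and 97 in Xbp1 ko, against 253, 287, 296 and 256 in WT littermates (log2 -1.41, SE 0.10; adjusted p = 0.000214). Manf had 215, 159, 265 and 245 in Xbp1 ko, against 457, 490, 595 and 309 in WT. Its arrays did not overlap, but WT replicate 4 lay close to the Xbp1 ko range, and the log2 change of -1.05 (SE 0.23) had an adjusted p = 0.0559. Without that WT array it was -1.23 (adjusted p = 0.027), which made 7 of 9. With all arrays Manf was called in 5 of 10 other settings, at adjusted p between 5.79e-05 with one fit over all arrays and 0.0488 with a robust variance model.

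Hspa5 had 781, 721, 934 and 935 in Xbp1 ko, against 998, 1046, 1110 and 812 in WT littermates. The groups overlapped, and the log2 difference was -0.23 (SE 0.12; 95% interval -0.52 to 0.05; adjusted p = 0.466). Hsp90b1 had 838, 771, 1033 and 910 in Xbp1 ko, against 904, 921, 978 and 781 in WT, a log2 difference of -0.02 (SE 0.10; 95% interval -0.25 to 0.22; adjusted p = 1). The second probe sets of Hspa5 and Hsp90b1 had -0.47 and -0.06 in the same comparison.

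The 2 losses were compared directly as the log2 change in Xbp1 ko minus the log2 change in untreated Ire1 ko, each against its own WT livers, in a fit over all 31 arrays. By limma 0 of 9 genes differed, against 0.824% of the genes tested, and 1 of 9 did at an unadjusted p under 0.05, against 9.99% of all genes. That gene was Dnajc3, at -0.38 (SE 0.14; 95% interval -0.66 to -0.11; adjusted p = 0.265). The difference was -0.38 (-0.98 to 0.22) for Sdf2l1 and -0.37 (-1.20 to 0.45) for Creld2, which turned to 0.28 without untreated Ire1 ko replicate 2. For the other 6 it lay between -0.09 for Dnajb11 and 0.10 for Manf, with intervals that reach from -0.55 to 0.61. The mice of the 2 experiments differ in more than the deleted gene, and what that contributes was not tested.

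**Figure D4:**
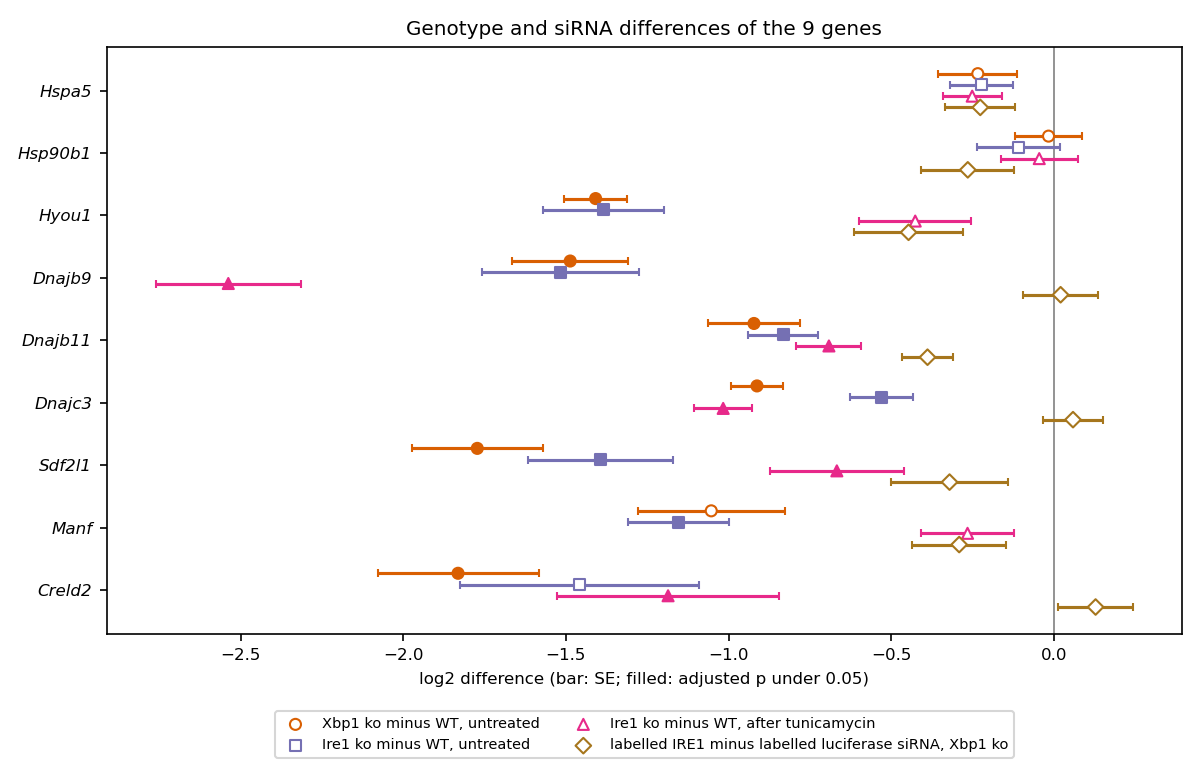
Log2 differences with their SE for the 9 genes, 1 row per gene, between Xbp1 ko and WT, untreated Ire1 ko and WT, treated Ire1 ko and WT, and the labelled IRE1 and labelled luciferase siRNA groups of Xbp1 ko; symbols are filled where the adjusted p was under 0.05. Hspa5 and Hsp90b1 have no filled symbol, and Dnajb9 after tunicamycin lies furthest left at -2.54.

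The siRNA experiment set livers labelled IRE1 siRNA against livers labelled luciferase siRNA, all from mice labelled Xbp1 ko. By limma 0 of 9 differed between the groups labelled IRE1 siRNA and luciferase siRNA, against 1.79% of the 14030 genes tested, while Hyou1 and Dnajb11 were lower at an unadjusted p under 0.05, 2 of 9 against 4.93% of all genes. Dnajb11 had 126, 103, 126 and 106 in the livers labelled IRE1 siRNA, against 152, 147, 147 and 155 in those labelled luciferase siRNA. It was the 1 gene of the 9 without overlap, where 2.51% of all genes were lower without overlap. Its log2 difference was -0.39 (SE 0.08; adjusted p = 0.0673), and it passed the test under 4 other settings, with quantile normalization at -0.44 (adjusted p = 0.0459) among them.

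Hyou1 had 32, 52, 35 and 33 in the livers labelled IRE1 siRNA, against 59, 45, 51 and 49 in those labelled luciferase siRNA (log2 -0.45, SE 0.17; adjusted p = 0.262). Hspa5 had 544, 480, 496 and 432, against 662, 609, 502 and 518 in the livers labelled luciferase siRNA (log2 -0.23, SE 0.11; adjusted p = 0.409). In both genes the groups overlapped. Of the rest, Sdf2l1, Manf and Hsp90b1 had differences of -0.32, -0.29 and -0.26, Dnajb9 0.02 (95% interval -0.25 to 0.29), Dnajc3 0.06 (-0.16 to 0.28) and Creld2 0.13 (-0.14 to 0.40).

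Across the 8 groups the order of levels was alike from gene to gene. For all 9, treated WT livers were highest, treated Ire1 ko livers came next, and the 2 groups of siRNA-injected Xbp1 ko livers were lowest. The treated groups overlapped each other for Hsp90b1 and Hyou1 only. Uninjected Xbp1 ko and untreated Ire1 ko livers lay next to each other for 8 of 9 genes, below both untreated WT groups, and overlapped for all of these but Creld2. Hsp90b1 was the exception, with its 6 untreated groups each overlapping the next in order, between means of 1029 in untreated WT and 664 in livers labelled IRE1 siRNA. The siRNA mice were younger and belong to another experiment, so age, injection and experiment cannot be told apart.

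Over the 31 arrays each of the 9 genes followed the mean of the other 8, with Pearson correlations of log2 intensity between 0.902 for Dnajb9 and 0.993 for Sdf2l1. The least alike pair was Hsp90b1 and Dnajb9 at 0.794, and the most alike was Dnajb11 and Sdf2l1 at 0.991, which are partners in a complex. These values are descriptions over 31 arrays that share the tunicamycin step and the array normalization.

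Of 6602 other genes that reached a mean intensity of 16 in some group, those most like the mean of the 9 over the 31 arrays were led by Pdia6, a protein disulfide isomerase, at 0.985. Next came Ero1b (0.977), an oxidase that recharges such isomerases, Edem1 (0.976), which marks glycoproteins for degradation, Selenos (0.973), Slc35b1 (0.968) and Syvn1 (0.968), the ubiquitin ligase of ER-associated degradation. Eif1a (0.965), Gfpt1 (0.964), Pdia4 (0.963) and Derl1 (0.958) completed the 10. When group means replaced arrays, 8 of these 10 remained among the top 10.

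The genes nearest in role, further J-domain proteins, exchange factors and Hsp70-like proteins of the ER, moved less as a group. Of 10 tested, 7 rose and 0 fell after tunicamycin in Ire1 ko and likewise 7 rose and 0 fell in WT, with median log2 changes of 0.65 in Ire1 ko and 0.66 in WT. Over all genes tested, 17.4% rose in Ire1 ko and 18.5% in WT. Hspa13, an ER and microsomal Hsp70, had a log2 change of 0.60 in Ire1 ko and 2.41 in WT. Dnajc10, a J-domain protein with disulfide reductase activity, had 0.70 in Ire1 ko and 2.39 in WT. The tested difference of the changes was -1.81 (SE 0.19; adjusted p = 2.06e-05) for Hspa13 and -1.69 (SE 0.17; adjusted p = 1.33e-05) for Dnajc10.

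In the same list Creld1, a relative of Creld2, had 1.65 in Ire1 ko and 0.92 in WT, a difference of 0.73 (SE 0.21; adjusted p = 0.0468), and Dnajc16 a difference of 0.99 (SE 0.21; adjusted p = 0.00854). So 2 of 10 differed in each direction, against 3.58% of all genes with a larger and 3.95% with a smaller induction in Ire1 ko. Treated Hspa13 averaged 49.2 ± 7.63 in Ire1 ko and 440.8 ± 23.8 in WT (SD, n = 4 each). The difference on the log2 scale was -3.17 (SE 0.13; adjusted p = 9.44e-11).

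Without the drug, Sil1, the other nucleotide exchange factor for BiP, fell by 1.10 on the log2 scale in Xbp1 ko (SE 0.10; adjusted p = 0.00129) and by 0.47 in Ire1 ko (SE 0.09; adjusted p = 0.0187). Hspa13 fell by 1.36 in untreated Ire1 ko (SE 0.14; adjusted p = 6.64e-05). These were the calls among the 10 in either untreated comparison.

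Disulfide isomerases, oxidases, lectins and prolyl isomerases of the ER formed a second list of 20 tested genes. After tunicamycin 13 rose and 1 fell in Ire1 ko, and 15 rose and 1 fell in WT, with median log2 changes of 0.65 in Ire1 ko and 1.31 in WT. Over all genes tested, 17.4% rose in Ire1 ko and 18.5% in WT. In treated livers 0 were higher and 13 lower in Ire1 ko than in WT, against 9.68% and 8.5% of all genes. The induction was smaller in Ire1 ko for 6 of 20 and larger for 0 by limma, against 3.95% and 3.58% of all genes. At an unadjusted p under 0.05 it was larger for 2, against 11.5% of all genes. The prolyl isomerase Fkbp11 differed by -3.04 (SE 0.31; adjusted p = 1.4e-05), Pdia5 by -2.05 (SE 0.27; adjusted p = 0.000159), Txndc5 by -1.24 (SE 0.12; adjusted p = 8.19e-06) and Erp29 by -1.20 (SE 0.15; adjusted p = 6.65e-05). Pdia4, in contrast, rose by 3.27 in Ire1 ko and 3.36 in WT on the log2 scale.

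In untreated livers 6 of these 20 were lower in Xbp1 ko, against 2.07% of all genes. They were led by Erp44 at -1.81 (SE 0.08; adjusted p = 4.13e-05), Uggt1 at -1.45 and Txndc5 at -1.31. In untreated Ire1 ko 5 of 20 were lower, against 0.863% of all genes, led by Uggt1 at -1.12, P4hb at -0.95 and Ero1b at -0.91. Erp44, which retains clients in the early secretory pathway, was the one whose loss differed between the genotypes, by -1.42 (SE 0.14; adjusted p = 3.52e-08), lower in Xbp1 ko. It was also lower in the livers labelled IRE1 siRNA, at 117.5 ± 15.02, against 234.5 ± 25.2 in those labelled luciferase siRNA (SD, n = 4 each; log2 -1.0, SE 0.11; adjusted p = 0.00563).

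Chaperones of other compartments gave a comparison from the same arrays. Over all genes tested, 17.4% rose after tunicamycin in Ire1 ko and 18.5% in WT, and the share that fell is not given here. Of 26 cytosolic chaperones, 5 rose and 5 fell after tunicamycin in Ire1 ko, and 4 rose and 8 fell in WT, with medians of 0.15 in Ire1 ko and -0.12 in WT. Bag3, an exchange factor for cytosolic Hsp70, differed most in its induction among those that passed the test, by -1.98 (SE 0.25; adjusted p = 0.000101). Of 10 mitochondrial chaperones and proteases, 7 rose and 1 fell in Ire1 ko, and 6 rose and 2 fell in WT, among them the mitochondrial Hsp70 Hspa9 by 0.99 in Ire1 ko and 0.96 in WT. By limma 0 of these 10 differed in induction, against 3.58% of all genes with a larger and 3.95% with a smaller induction in Ire1 ko. At an unadjusted p under 0.05 it was larger in Ire1 ko for 3, against 11.5% of all genes.

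**Figure D5:**
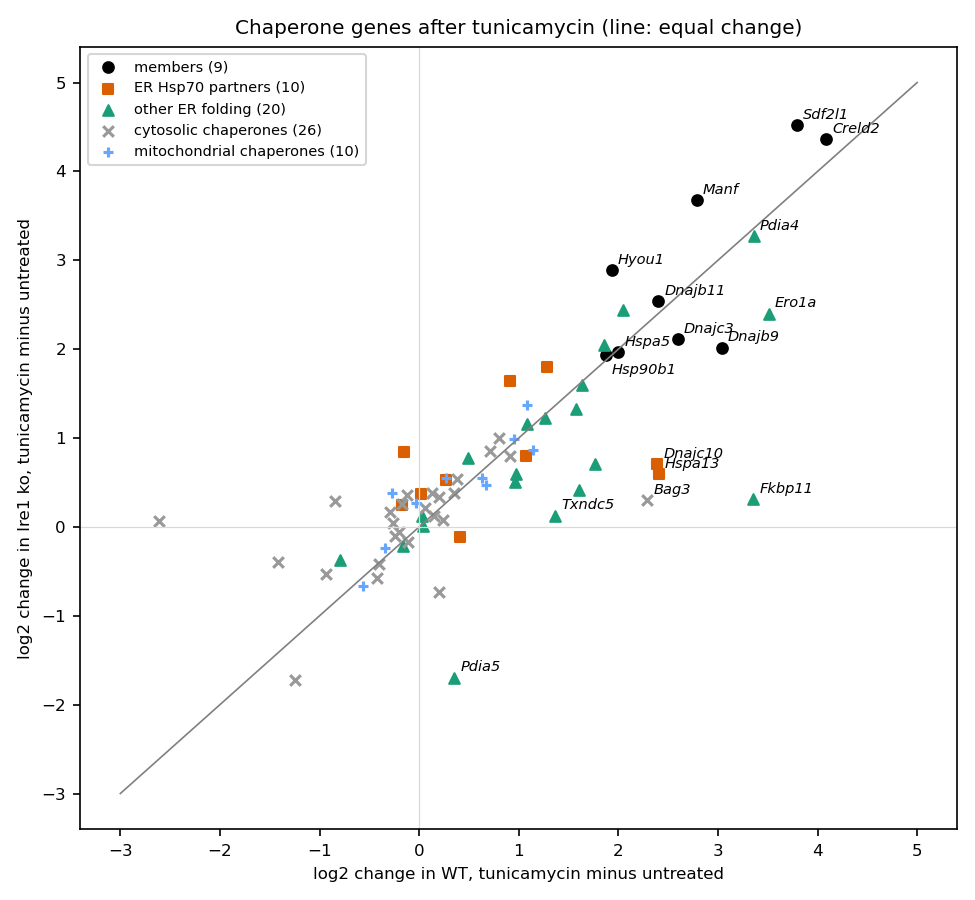
Log2 change after tunicamycin in WT (horizontal axis) and in Ire1 ko (vertical axis), 1 point per gene, for the 9 genes (black circles) and 4 lists of other chaperones; the line marks equal change. Hyou1, Manf and Sdf2l1 lie above the line, Dnajb9 and Dnajc3 below it, and Fkbp11, Hspa13 and Dnajc10 far below it.

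Of the list of stress sensors and factors, 9 of 13 rose in each genotype after tunicamycin. Over all genes the shares were 17.4% in Ire1 ko and 18.5% in WT. Ddit3, a target of PERK signalling, rose by 6.63 in Ire1 ko and 8.00 in WT on the log2 scale, and by 7.62 in Ire1 ko without the untreated liver that stood apart, a fit added after seeing the data. The test of the difference was not passed with that liver (adjusted p = 0.274) or without it (adjusted p = 0.348). Atf4 rose by 2.26 in Ire1 ko and 2.28 in WT, and Atf6 by 1.97 in Ire1 ko and 2.11 in WT. Eif2ak3, which encodes PERK, had a log2 change of 0.65 in Ire1 ko and 3.08 in WT, a difference of -2.43 (SE 0.22; adjusted p = 3.89e-06). Xbp1 mRNA rose to 1640 ± 106 in treated Ire1 ko, against 755 ± 35.6 in untreated Ire1 ko (SD, n = 4 and 3; log2 1.12, SE 0.11; adjusted p = 1.15e-06). In WT it averaged 930.2 ± 97.7 after tunicamycin and 933.5 ± 152 untreated (SD, n = 4 each; adjusted p = 1). The array does not tell spliced from unspliced Xbp1.

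Markers of liver cells were read beside these results. The share of all genes that fell after tunicamycin is not given here. Counts of falling markers below can therefore not be called particular to a list or genotype. All 10 hepatocyte markers reached an intensity of 16 in every group. Their summed intensity was 41255 to 43644 in treated Ire1 ko, 38961 to 39969 in treated WT, 42589 to 46489 in untreated Ire1 ko and 43016 to 46950 in untreated WT. After tunicamycin 2 of 10 fell and 1 rose in Ire1 ko, and 6 of 10 fell and 0 rose in WT. In treated livers 3 of 10 were higher in Ire1 ko than in WT, against 9.68% of all genes. In Xbp1 ko 2 of 10 were lower than in WT littermates, against 2.07% of all genes. The 10 markers had sums of 44385 to 46845 in Xbp1 ko and 46422 to 49300 in WT. In untreated Ire1 ko 0 of 10 differed from WT, also at an unadjusted p under 0.05 by limma. By adjusted p, 0.863% of all genes were lower and 0.0791% higher there. Between the livers labelled IRE1 siRNA and luciferase siRNA 1 was higher and 2 were lower, where 1.79% of all genes differed in either direction.

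The 10 markers of Kupffer cells, the macrophages of the liver, summed to 735 to 1063 in treated Ire1 ko, 498 to 682 in treated WT, 687 to 2263 in untreated Ire1 ko and 702 to 1476 in untreated WT. After tunicamycin 0 of them changed in Ire1 ko, also at an unadjusted p under 0.05 by limma, and 3 fell in WT. Of 9 endothelial markers, 0 rose and 1 fell in Ire1 ko, and 1 rose and 3 fell in WT; their sums were 553 to 731 in treated Ire1 ko, 442 to 557 in treated WT, 520 to 705 in untreated Ire1 ko and 564 to 744 in untreated WT. Of 9 markers of stellate cells tested, 1 fell in Ire1 ko and 2 fell in WT. The Kupffer markers summed to 2263, 687 and 754 in untreated Ire1 ko replicates 1, 2 and 3, of which replicate 2 is the liver with high Ddit3. Markers of plasma and B cells, which carry much ER, of bile duct cells and of pancreatic acinar cells all stayed below an intensity of 16 in every group. The part of changing cell composition in the results was not tested.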

How the data were processed

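Liver total RNA was hybridised to 31 Affymetrix arrays with perfect-match probes only. RMA and affy are the tools named per the submitters' processing notes, without versions. The authors deposited linear probe set intensity rounded to whole numbers. Its log2 was taken here before any test. Of 45037 probe sets, 28898 carried 1 gene symbol, 551 several and 15588 none in the annotation. Symbols were updated by gene identifier, and each gene was read from its brightest such probe set over all arrays.

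All tests used limma 3.58.1 under R 4.3.3 (lmFit, eBayes with intensity trend), two-sided, with Benjamini-Hochberg adjustment over all genes tested at 0.05. Genes entered a fit if 3 or more of its arrays placed them over that array's 30th percentile. The Xbp1 and siRNA experiments had 8 arrays each, the Ire1 experiment 15 in 4 groups. Values in parentheses are standard errors (SE), or standard deviations (SD) where named. The fits were tested on simulated data. Whether arrays were normalized in 1 run is not given in the sources used here.

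The 9 genes and the lists were chosen with earlier results of these data known. Genes named from a list were up to 4 called members with the largest change in a comparison, and the 10 genes most correlated with the 9. Alternatives changed scaling, filter, probe set, offset, variance model, fit, replicate block and array set.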

Additional observations from a re-analysis of the deposited data

Results flagged for a closer look

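Within groups of 4 arrays, 5 of 63 combinations of gene and group had 1 array far from the rest by Dixon's test on the log2 scale, where chance gives about 1 in 20. Hspa5 was 1195 in untreated WT replicate 3, against 872 to 901 in the others, and 2879 in treated Ire1 ko replicate 4, against 3262 to 3347. Dnajb11 was 296 in untreated WT replicate 4, against 395 to 414. Manf was 2733 in treated Ire1 ko replicate 2, against 3194 to 3271, and Creld2 was 68 in Xbp1 ko replicate 3, against 49 to 51.

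The response to tunicamycin differed between Ire1 ko and WT, by the interaction in limma, for Hyou1 (0.96), Manf (0.89) and Dnajc3 (-0.49) on the log2 scale. The Hyou1 and Dnajc3 calls were lost with the mean of each gene's probe sets (adjusted p = 0.747 and 0.0568). The untreated Ire1 ko group held 3 arrays, too few for Dixon's test here; its replicate 2 had 275 for Creld2, against 69 and 73, and 111 for Dnajb9, against 52 and 51.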

How the results depend on the processing

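Of 418 alternatives run on the called changes of the 9 genes, 19 lost the call and 1 turned its sign, and of 528 fits without 1 array 32 lost the call and 0 turned. The count of the 9 genes with a different induction in Ire1 ko and WT was 1 (1 higher, 0 lower) with the mean over all probe sets of a gene, against 3. The count between treated Ire1 ko and WT was 3 with no filter, against 5. Between the labelled siRNA groups it was 1 with a common median, a filter at an intensity of 16, quantile normalization or robust fitting, against 0. Without 1 array these counts ranged over 1 to 4, 3 to 6 and 0 to 0, and those for untreated Ire1 ko over 5 to 7, Xbp1 ko over 5 to 7, the difference of the 2 losses over 0 to 0, and tunicamycin over 9 to 9 in both genotypes.

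The Hyou1 induction difference turned to -0.82 with another probe set. That probe set had untreated means of 5.25 in WT and 4.33 in Ire1 ko, near the median intensity of 5. Differences that had passed no test turned too. For induction these were Hsp90b1 at -0.027 with its second probe set and Hspa5 at 0.10 with the mean of its probe sets and 0.24 with the second; after tunicamycin it was Hspa5 at 0.027 with the second. Between the labelled siRNA groups, Dnajb9 had -0.043 with a common median and -0.046 with quantile normalization, and Dnajc3 -0.0044 with a common median, -0.0068 with the mean of its probe sets and -0.024 with another probe set. For the difference of the 2 losses, Dnajb9 had -0.059 with a common median, -0.012 with an offset of 16 and -0.015 with quantile normalization, Dnajc3 0.14 and 0.091 with other probe sets, Hsp90b1 -0.012 with its second and Hspa5 0.0017 with quantile normalization.

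Without 1 array, the induction difference ranged over -0.073 to 0.92 for Creld2, -0.025 to 0.20 for Hsp90b1 and -0.14 to 0.022 for Hspa5. Hsp90b1 ranged over -0.13 to 0.0039 after tunicamycin and -0.092 to 0.049 in Xbp1 ko, and Dnajb9 over -0.050 to 0.12 between the labelled siRNA groups. The difference of the losses ranged over -0.72 to 0.28 for Creld2, -0.19 to 0.033 for Dnajb11, -0.16 to 0.40 for Dnajb9, -0.12 to 0.060 for Hspa5, -0.14 to 0.15 for Hyou1 and -0.086 to 0.25 for Manf. The cause was not tested.

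Correlations of same-numbered arrays exceeded 0.1 in 6 of 21 pairs (Ire1, -0.183 to 0.273), 0 of 4 (siRNA, -0.142 to 0.047) and 2 of 4 (Xbp1, 0.013 to 0.242). They were not set against differently numbered arrays, so whether replicate numbers pair the samples was not tested. The main fits used no pairing. With the replicate block the induction difference was called for 2 genes (2 higher, 0 lower), with Dnajc3 at -0.48 (adjusted p = 0.0632), and the difference of the losses was 0.020 for Hspa5 and 0.023 for Hyou1. Dim probe sets near the median intensity limit what a fall can show.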
